A study of Mus musculus with 15 samples.

Results

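The mRNAs of 6 histone chaperones, Anp32b, Npm2, Nap1l1, Nasp, Chaf1a and Supt16, were followed on ribosomes of mouse eggs, zygotes and early embryos from Eif4e1b knockout or heterozygous mothers. The 6 genes were found by symbol among the 55490 genes of the count table, and each symbol matched a single gene. They were chosen with their levels in these same libraries known, as shares of protein-coding counts across stage and genotype. Their levels and differences are therefore descriptions. Fits across all genes gave their fold changes and the calls counted further on, and nothing is read from those calls for the 6.

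Histone chaperones hold histones that are not wrapped in DNA and pass them on to, or take them from, chromatin. Some bind H3 and H4 and serve new nucleosomes at replication forks, while others handle H2A and H2B during transcription and remodelling. In the egg they are laid down as maternal mRNA and protein. After fertilisation, sperm DNA loses its protamines, takes up maternal histones and is replicated before the embryo transcribes many genes of its own. Eif4e1b is an oocyte relative of the cap-binding translation factor eIF4E.

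The donors were B6D2F1 female mice, Eif4e1b knockout (KO) or heterozygous (Het). In all groups Rpl22, which belongs to the large ribosomal subunit, bore an HA tag, and tagged ribosomes were pulled down after digestion of unprotected RNA. What drives the tagged Rpl22, the age of the donors and the genotype of the males were not given in the sources used here. M2 eggs (unfertilised, 2 Het and 2 KO libraries), PN5 zygotes (a late pronuclear stage, 3 Het and 3 KO) and early 2-cell embryos (3 Het and 2 KO) were profiled. Each library pooled about 200 eggs or zygotes or about 100 2-cell embryos. The labels do not say that libraries of a group came from separate animals, so any spread between them may be technical.

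Protein-coding genes received 5997 to 47399 counts in each of the 10 libraries of eggs and zygotes and 1059 to 7795 in each of the 5 libraries of early 2-cell embryos. A level is the percent of a library's protein-coding counts, with an exact (Clopper-Pearson) 95% interval that covers counting error alone: reads were amplified by PCR and carry no molecular identifiers, so they are not independent. Ranks between genes are ranks of raw counts within a library, to which longer transcripts give more, and levels of different genes were not otherwise compared. The egg identity of the libraries was poorly visible: 9 of 18 egg markers had a count, 160 counts in all, while Zp1, Zp2 and Zp3, which encode the egg coat, were listed at 0 in all 15 libraries. Of 18 markers of the 2-cell embryo, 5 had a count, 35 counts in all. Genes that all cells use, such as Npm1, Set, Rbbp4, H3f3a and Pcna, were also at 0 throughout. A 0 in this table is therefore given as a listed value and not as absence of ribosome-bound mRNA. In pooled samples, fewer embryos with an mRNA and less of it in each embryo cannot be told apart.

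Anp32b was the one chaperone of the 6 with a count in every egg and zygote library. It lies on chromosome 4 (46450926 to 46472657, GRCm38.p6; ENSMUSG00000028333) and encodes a nuclear protein with leucine-rich repeats and a long acidic tail that binds histones. It held 10954 of the 12339 counts of the 6 genes (88.8%). Anp32b ranked between 2 and 8 among protein-coding genes by count in the 10 egg and zygote libraries. Its mean share over the 15 libraries was 3.45% ± 2.46 (SD, n = 15).

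In M2 eggs Anp32b took 4.93% and 6.68% of protein-coding counts in the Het libraries and 7.74% and 3.55% in the KO libraries. The KO values lay on both sides of the Het values. In PN5 zygotes the Het libraries had 2.32%, 4.15% and 3.49%, and the KO libraries 5.29%, 2.44% and 6.47%. The highest PN5 values were in KO libraries, but the groups overlapped. In early 2-cell embryos it had 32 counts in Het replicate 2 (1.93%) and 32 in KO replicate 2 (2.82%), and was listed at 0 in Het replicates 1 and 3 and KO replicate 1.

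By group mean the order was M2 Het (5.81% ± 1.24, SD, n = 2), M2 KO (5.64% ± 2.96, n = 2), PN5 KO (4.73% ± 2.07, n = 3), PN5 Het (3.32% ± 0.93, n = 3), early 2-cell KO (1.41% ± 1.99, n = 2) and early 2-cell Het (0.645% ± 1.12, n = 3). Every neighbouring pair in that order overlapped, and 7 of the 15 possible pairs of groups did not. Both M2 groups lay above both early 2-cell groups, and both PN5 groups lay above early 2-cell Het. M2 Het also lay above PN5 Het. In Het the mean share was 1.75-fold lower in zygotes than in eggs and 5.15-fold lower in early 2-cell embryos than in zygotes. In the KO the mean was 3.36-fold lower in early 2-cell embryos than in zygotes, with overlap. The fitted log2 fold change from PN5 to early 2-cell was -3.48 (SE 1.78) in Het and -3.52 (SE 2.11) in KO. The median of all 495 tested genes was -1.90 and -1.60 in those comparisons, so most genes were lower on that scale. Between KO and Het the fitted log2 fold change of Anp32b was -0.33 (SE 1.97) in M2, 0.50 (SE 1.61) in PN5 and 0.46 (SE 1.83) in early 2-cell embryos, each smaller than its error.

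**Figure D1:**
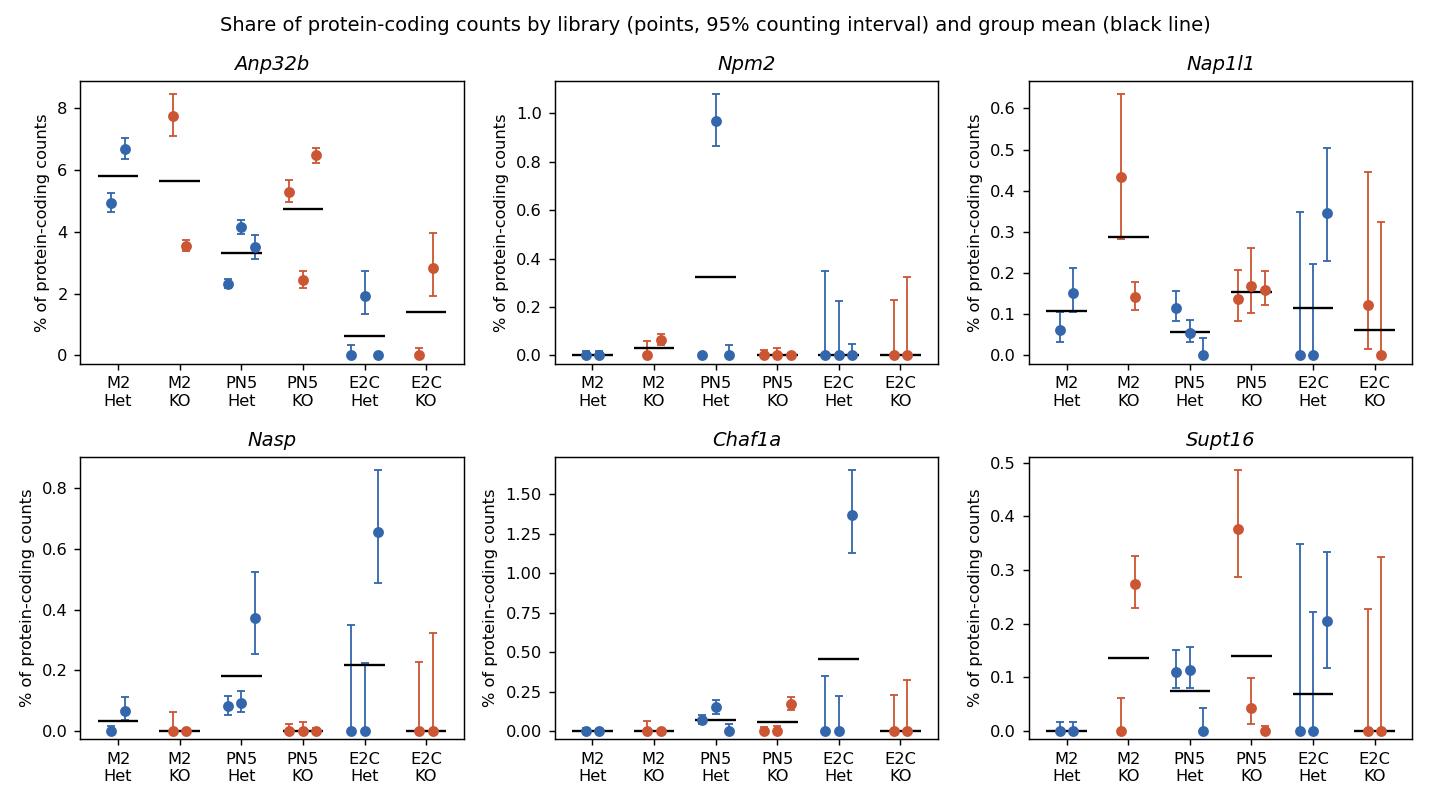
Share of protein-coding counts of the 6 histone chaperones (y axis of each panel, percent, with its own scale) in each of the 15 libraries (x axis, by stage and genotype; blue Het, orange KO). Bars on points are exact 95% counting intervals and black lines are group means; Anp32b has a value in all 10 egg and zygote libraries, Npm2 in 2 libraries.

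The Anp32b zeros in early 2-cell embryos were set against depth. At the share of Het replicate 2, the 7795 protein-coding counts of early 2-cell Het replicate 3 would have held 151 Anp32b counts and those of Het replicate 1 would have held 20.5. KO replicate 1 would have held 45.7 at the share of KO replicate 2. By counting error alone, the zero of Het replicate 3 would allow a share of up to 0.0385% (3 counts), against 1.93% in replicate 2 of the same group. The 3 Het embryo libraries thus differed among themselves by more than the Het zygote libraries, whose highest value was 1.79-fold the lowest.

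Relatives of Anp32b were weakly counted. Anp32e, the chaperone that removes H2A.Z from nucleosomes, had 93 counts in 6 libraries, 46 of them in PN5 Het replicate 1. Anp32a was listed at 0. A processed copy, Anp32b-ps1, had 47 counts, with at least 1 in every egg and zygote library and 0 in the embryos. The sources used here do not say how reads shared by the gene and its copy were assigned, so the level of Anp32b is uncertain to that extent.

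Npm2, the egg nucleoplasmin, binds H2A and H2B and takes part in the remodelling of sperm chromatin after fertilisation. It lies on chromosome 14 (70647296 to 70661802; ENSMUSG00000047911). It was counted in 2 of 15 libraries: 321 counts in PN5 Het replicate 2 (0.967%, interval 0.864% to 1.08%) and 30 in M2 KO replicate 2 (0.0633%, interval 0.0427% to 0.0903%). The PN5 Het mean of 0.322% ± 0.558 (SD, n = 3) rests on 1 library. At that library's share, PN5 Het replicate 1 would have held 357 counts and replicate 3 would have held 83.3, and both were listed at 0. The PN5 KO libraries were all at 0 too, so the PN5 groups overlap at 0 and nothing separates them.

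Nap1l1, a cytoplasmic and nuclear carrier of H2A and H2B, lies on chromosome 10 (111472882 to 111498150; ENSMUSG00000058799). It was counted in 11 of 15 libraries, next to Anp32b the most often of the 6. In M2 eggs it had 13 and 34 counts in Het (0.0622% and 0.153%) and 26 and 67 in KO (0.434% and 0.141%). The M2 groups overlapped. In PN5 zygotes the Het libraries had 43, 18 and 0 counts (0.116%, 0.0542% and 0) and the KO libraries 21, 20 and 64 (0.136%, 0.169% and 0.160%). All 3 KO zygote shares lay above all 3 Het shares, and the highest KO share was 1.24-fold the lowest. In early 2-cell embryos it had 27 counts in Het replicate 3 (0.346%) and 2 in KO replicate 1 (0.123%, interval 0.0149% to 0.444%).

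The PN5 means of Nap1l1 were 0.155% ± 0.017 in KO and 0.0569% ± 0.0583 in Het (SD, n = 3 each), a 2.73-fold difference. The counting interval of the Het library at 0.116% overlaps those of the KO libraries, as the plot of shares by library shows. The fitted log2 fold change was 1.23 (SE 1.49), smaller than its error. In M2 it was 1.03 (SE 1.82) and in early 2-cell embryos -1.50 (SE 1.95). Ordered by mean, M2 KO was highest (0.287% ± 0.207, SD, n = 2), followed by PN5 KO, early 2-cell Het (0.115% ± 0.200, n = 3), M2 Het (0.107% ± 0.064, n = 2), early 2-cell KO (0.0616% ± 0.0871, n = 2) and PN5 Het. Each neighbouring pair overlapped.

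Supt16 encodes the large subunit of FACT, which loosens H2A and H2B from nucleosomes ahead of polymerases and restores them afterwards. It lies on chromosome 14 (52160419 to 52197239; ENSMUSG00000035726). Of its 288 counts, 130 came from M2 KO replicate 2 (0.274%), while the other M2 libraries were at 0. In PN5 zygotes it had 41, 38 and 0 counts in Het (0.111%, 0.114% and 0) and 58, 5 and 0 in KO (0.377%, 0.0423% and 0). The PN5 groups overlapped fully. At the mean share of the other KO zygote libraries, PN5 KO replicate 3 would have held 83.8 counts and had none. In early 2-cell embryos it had 16 counts, all in Het replicate 3 (0.205%). Ssrp1, the other FACT subunit, had 12 counts, 7 and 5 in PN5 KO replicates 2 and 3.

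Nasp carries H3 and H4, keeps a soluble reserve of them and also binds linker histones. It lies on chromosome 4 (116601052 to 116628676; ENSMUSG00000028693). In PN5 zygotes it had 30, 31 and 32 counts in the Het libraries and 0 in each of the KO libraries. The Het shares were 0.0813%, 0.0934% and 0.371%, a mean of 0.182% ± 0.164 (SD, n = 3). By counting error alone, the zero in KO would allow up to 0.00446% over the group (3 counts), 40.8-fold below the Het mean. That limit does not bound the share, since zeros occurred here beyond counting error. In PN5 Het replicate 1, Npm2 was at 0 where 357 counts would have been held at the share of replicate 2. The lowest bound of the Het counting intervals, 0.0548%, lay above the highest bound in KO, 0.0312%. The groups thus did not overlap, although the near-equal Het counts came from libraries of 36920, 33198 and 8614 protein-coding counts, so the Het shares differed 4.57-fold.

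Outside the zygote, Nasp was counted in 1 Het library of each stage. M2 Het replicate 2 had 15 counts (0.0674%), and early 2-cell Het replicate 3 had 51 (0.654%, interval 0.488% to 0.859%). The KO libraries were at 0 at each stage. Depth was low in M2 KO replicate 1 (5997 protein-coding counts) and in early 2-cell KO replicates 1 and 2 (1623 and 1136). M2 KO replicate 2 was the deepest of the 15 libraries (47399), with a counting interval of 0 to 0.00778%. In M2 eggs and in early 2-cell embryos other Het libraries were at 0 as well, so the genotypes overlap there. By counting error alone, zeros in the embryo KO libraries would allow up to 0.185% and 0.264% in each and 0.109% over both. The mean was 0.182% in the Het zygotes and 0.218% in early 2-cell Het, where 1 library had counts.

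Chaf1a encodes the large subunit of CAF-1, which deposits H3 and H4 behind the replication fork. It lies on chromosome 17 (56040416 to 56068026; ENSMUSG00000002835). None of the M2 libraries had a count, and the group limits there, for counting error alone, are 0.00695% in Het and 0.00562% in KO. In PN5 zygotes it had 26, 50 and 0 counts in Het (0.0704%, 0.151% and 0) and 0, 0 and 69 in KO (0.173% in replicate 3). The zygote groups overlapped. In early 2-cell embryos it had 107 counts in Het replicate 3 (1.37%, interval 1.13% to 1.66%), where it ranked 9 among protein-coding genes by count, and 0 in the other 4 libraries. At that share, Het replicates 1 and 2 would have held 14.5 and 22.7 counts. The same library held the highest Nasp share and no Anp32b.

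Partners of Chaf1a were scarcely seen. Chaf1b and Rbbp4, the other CAF-1 subunits, were listed at 0. Rbbp7, a close relative of Rbbp4, had 71 counts, of which 52 and 10 were in PN5 Het replicates 1 and 2 and none in the KO zygotes. Of 28 genes of the replication fork, 6 had a count, 318 counts in all. Rfc1, the large subunit of the clamp loader that places PCNA on DNA, had 60, 31 and 24 counts in PN5 Het and 2, 7 and 0 in PN5 KO. Its groups did not overlap, with 0.178% ± 0.094 in Het and 0.0241% ± 0.0312 in KO (SD, n = 3 each), and it did not pass the test (log2 fold change -3.36, SE 1.65, edgeR adjusted p = 0.731). Mcm3, a subunit of the replicative helicase, had 7, 19 and 1 counts in PN5 Het and 3, 1 and 38 in PN5 KO. Rfc1 and Mcm3 were the 2 replication fork genes that were tested, and 0 of 2 passed in any comparison.

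**Figure D2:**
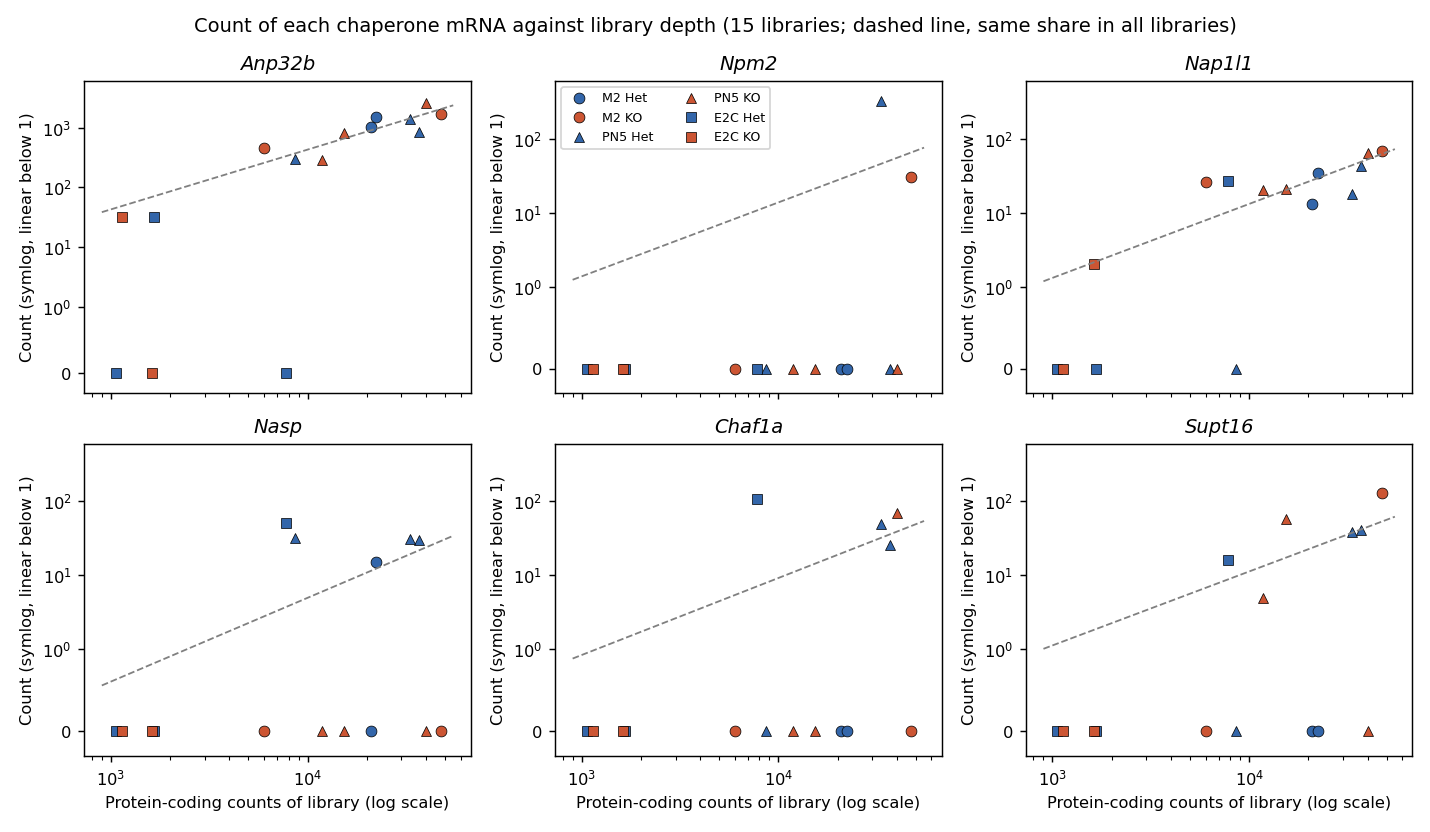
Count of each of the 6 chaperones (y axis, symmetric log scale) against the protein-coding counts of the library (x axis, log scale), 1 point per library (circles M2, triangles PN5, squares early 2-cell; blue Het, orange KO). The dashed line is the count expected at the same share in all libraries; Npm2, Nasp, Chaf1a and Supt16 have zeros at depths where the line lies well above 0.

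Counts of the 5 chaperones other than Anp32b were nearly all either 0 or substantial. Of 75 values, 28 were above 0, and 2 of those (7.14%) were below 10 counts. Over all protein-coding genes, 74.1% of the 12732 values above 0 were below 10 counts. The 5 genes were chosen with their levels known, and nothing is read from that contrast. PN5 Het replicate 2 had counts for all 6 genes, PN5 Het replicate 1 for 5 and early 2-cell Het replicate 3 for 4, while early 2-cell Het replicate 1 had none. Supt16 was counted in 6 libraries and Chaf1a in 4, and Nap1l1 was counted in each of them.

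The 9 comparisons were fitted over 495 genes that passed a filter on low counts, all 6 chaperones among them. Passing can depend on the group where a gene is high, so the 6 are not a sample of chaperones. At an adjusted p under 0.05, edgeR's quasi-likelihood test called none of the 6 and 0 of 495 genes (0%) in each of the 9. At an unadjusted p under 0.05 it had 6, 35 and 25 genes for KO against Het in M2, PN5 and early 2-cell, 17 and 21 for PN5 against M2 in Het and KO, 97 and 43 for early 2-cell against PN5 in Het and KO, and 26 for each difference of KO effects between successive stages.

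DESeq2's Wald test called 2, 2, 4, 4, 1, 40, 13, 0 and 0 genes in the same order. Those are 0.404%, 0.404%, 0.808%, 0.808%, 0.202%, 8.08%, 2.63%, 0% and 0% of the tested genes. DESeq2 gave no adjusted p to 159 genes for early 2-cell against PN5 in Het and 285 in KO. In each other comparison 31 genes had none. Such genes could not be called but are counted among the tested genes. Npm2 had no DESeq2 adjusted p in any comparison, so it could not be called. It called Nasp for KO against Het in M2 and PN5, Nasp and Chaf1a in early 2-cell embryos, and Chaf1a for PN5 against M2 in both genotypes. In each of these a whole group was at 0. Of the other listed chaperones it called Ncl lower for PN5 against M2 in Het (adjusted p = 0.0488) and for early 2-cell against PN5 in KO (adjusted p = 0.0289). The 6 genes were chosen on these contrasts, and nothing is read from their calls.

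Counting groups whose shares do not overlap gave 2 of the 6 chaperones for KO against Het in PN5 zygotes, Nap1l1 and Nasp, where 6.46% of the tested genes did not overlap. It gave 0 of 6 in M2 (24% of tested genes) and 0 of 6 in early 2-cell embryos (11.7%). Between stages it gave Anp32b and Nasp for PN5 against M2 in Het (17.8%), none in KO (7.68%), Anp32b for early 2-cell against PN5 in Het (16.2%) and Nap1l1 in KO (24.2%). The early 2-cell KO values of Nap1l1 were 2 counts and 0. Its pooled share there was 2.16-fold below that of PN5 KO, with a counting interval of 0.582 to 18.0 that includes no difference. Because the members were chosen on these levels, the counts are descriptive. Nap1l1 and Nasp lay in opposite directions in the KO zygote.

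Of 20 markers of cumulus and granulosa cells, which surround the egg, 10 had a count. Their summed share was 0.0116% to 0.195% in PN5 Het and 0.288% to 0.908% in PN5 KO, with no overlap. Cyp11a1, a steroid-synthesis enzyme, had 47, 0 and 340 counts in PN5 KO and 0 in PN5 Het. Without it, a choice made after its values were seen, the sum was 0.0455%, 0.288% and 0.0575% in the KO zygotes, which overlaps the Het range. Gja1 had 39 counts in PN5 Het and 15 in PN5 KO, and Fst had 16 and 7. Serpine2, Hsd3b1 and Foxl2 had 9, 6 and 3 in PN5 Het and none in PN5 KO. Inhba went the other way, with 2 counts in PN5 Het and 25 in PN5 KO. Its PN5 groups did not overlap (at most 0.00542% in Het, at least 0.0130% in KO). Vcan had 14 and 15 counts, and Cyp19a1 and Ptx3 had 1 each in PN5 KO and none in PN5 Het. With Cyp11a1 included, the sum in M2 was 0.211% to 0.909% in Het and 0.0334% to 0.234% in KO. Cyp11a1 had 160 counts in M2 Het replicate 1. Without it, the M2 sums were 0.143% and 0.171% in Het and 0.0334% and 0.224% in KO. In early 2-cell embryos, where Cyp11a1 was at 0, the sum was 0.0128% to 0.189% in Het and 0 in KO. Has2, Tnfaip6, Ptgs2, Inhbb, Fshr, Amh, Amhr2, Star, Lhcgr and Nr5a2 were at 0 throughout. The part of the markers in the values of Nasp and Nap1l1 was not tested. All 11 sperm markers were at 0, and 8 blood markers had 1 count.

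Among 48 histone chaperones and histone-binding partners looked up in the table, 26 had a count and 22 were listed at 0. Besides the 6, 14 of 42 (33.3%) had at least 10 counts in all, and 7.79% of all protein-coding genes did. The lists were chosen with earlier results of these data known, and nothing is read from that difference. The H3 and H4 chaperones at 0 were Chaf1b, Asf1a, Asf1b, Ubn1, Cabin1, Daxx, Rbbp4, Tonsl, Mms22l, Mcm2, Dnajc9, Cdan1, Ipo4 and Spty2d1. The H2A and H2B group lacked Npm1, Npm3, Anp32a, Set, Aplf, Vps72, Znhit1 and Ipo9. Nap1l4 and Nap1l3, relatives of Nap1l1, had 65 and 50 counts.

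**Figure D3:**
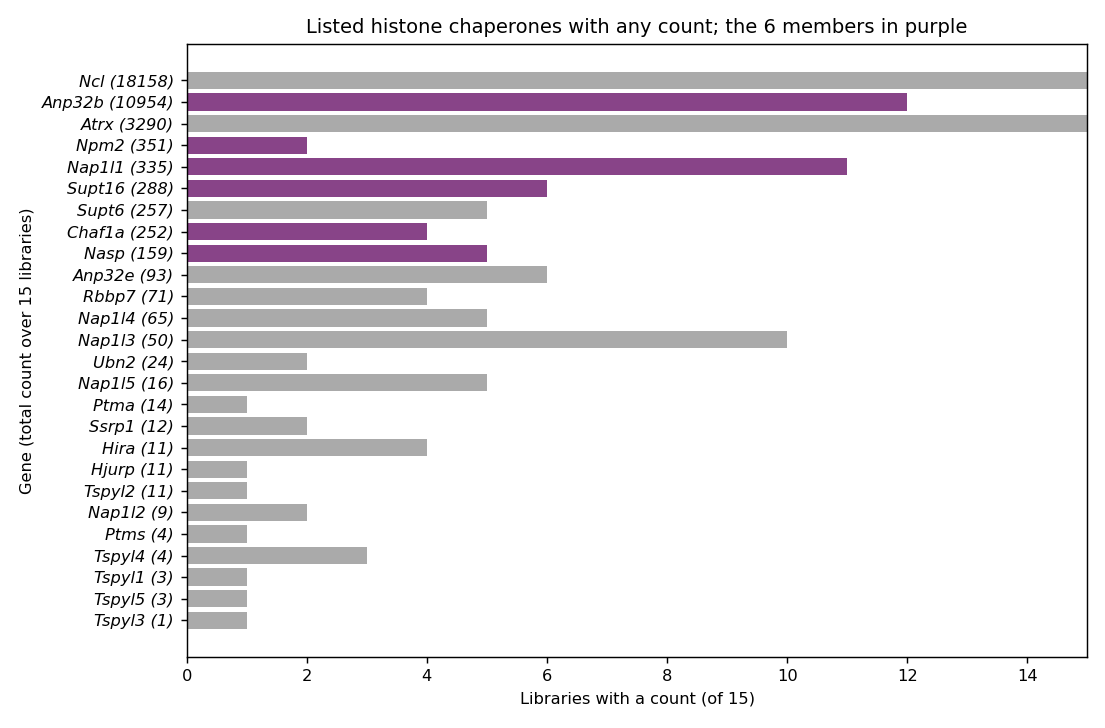
Number of libraries with a count, of 15 (x axis), for the 26 listed histone chaperones with any count (y axis, total counts in the labels; the 6 described genes in purple). Ncl and Atrx were counted in all 15 libraries, Anp32b in 12 and Nap1l1 in 11.

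Of the 48, 10 were tested, and in each of the 9 comparisons 0 rose and 0 fell at an edgeR adjusted p under 0.05. For KO against Het in PN5 zygotes, 6 of the 10 had a fold change above 0 and 4 below, with a median log2 fold change of 0.15 against 0 for all tested genes. In M2 the median was 0.26 against -0.02, and in early 2-cell embryos -0.12 against 0. From PN5 to early 2-cell it was -1.71 against -1.90 in Het and -2.54 against -1.60 in KO. From M2 to PN5 it was 0.85 against 0.10 in Het and -0.15 against 0.13 in KO. These medians include the 6 chosen genes, and nothing is read from them. For the 4 tested chaperones outside the 6, the medians for KO against Het were 0.26 in M2, 0.15 in PN5 and 0.12 in early 2-cell embryos. From PN5 to early 2-cell they were -4.15 in Het and -2.24 in KO, and from M2 to PN5 -0.41 in Het and -0.38 in KO. Among these 4, Supt6 and Anp32e were listed at 0 in whole groups.

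The 4 tested chaperones outside the 6 were Ncl, Atrx, Supt6 and Anp32e. Ncl, nucleolin, had 18158 counts and a share of 3.93%, 4.93% and 4.07% in PN5 Het and of 10.4%, 5.16% and 7.23% in PN5 KO. All 3 KO zygote values of Ncl lay above all 3 Het values, but it did not pass the test (log2 fold change 0.75, SE 0.73, edgeR adjusted p = 1). Atrx, which deposits H3.3 together with Daxx, had 3290 counts and PN5 shares of 1.28%, 0.702% and 1.24% in Het and 1.52%, 1.39% and 1.20% in KO, with overlap. Its log2 fold change was 0.27 (SE 0.79, edgeR adjusted p = 1). Supt6, a transcription elongation factor that binds H3 and H4, had 257 counts in 5 libraries and none in early 2-cell embryos. For the histone variants and linker histones that chaperones carry, 5 of 12 genes had a count, 161 in all, and H1f0 alone was tested. It did not pass in any comparison, with a log2 fold change of 0.44 (SE 1.84, edgeR adjusted p = 1) for KO against Het in PN5.

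The 6 chaperones did not follow each other closely over the 15 libraries. On log2(CPM + 1), the largest Pearson r between any pair was 0.525 for Nasp and Chaf1a, followed by 0.497 for Npm2 and Supt16, while Anp32b and Nasp had -0.02. Among 420 other protein-coding genes, those most like Anp32b were Cenpf (r = 0.957), Srrm2 (0.924) and Map1b (0.916). For Nap1l1 they were Atxn2 (0.860), Mki67 (0.792) and Eif5 (0.786), for Nasp Rbm25 (0.778), Nusap1 (0.754) and Ddx24 (0.742), and for Chaf1a Lyar (0.841), Kat6a (0.786) and Eif4g1 (0.761). Supt16 was most like Chd6 (0.857), Dek (0.848) and Iws1 (0.763). The r of Npm2 with Upf3b (0.973) and Pole3 (0.959) rests on 2 libraries with counts of either gene, and its r with Supt5 was 0.742. Libraries with counts of both genes numbered 2 for Npm2 and Supt5, 4 for these Chaf1a pairs and 5 for these Nasp pairs. For Supt16 they numbered 5, 4 and 3 with Chd6, Dek and Iws1. Among the 6, Nasp and Chaf1a shared 3 such libraries and Npm2 and Supt16 shared 2. In all other libraries at least 1 gene of the pair was at 0. The points share library depth, which was lowest in the early 2-cell libraries other than Het replicate 3. Genes are compared after many were screened, so these are descriptions.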

How the data were processed

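The values deposited by the authors were estimated counts per gene, held as unscaled whole numbers. The tools named per the submitters' processing notes were STAR 2.7.6a, cutadapt, deepTools 3.5.1 and StringTie 2.1.4, and the build GRCm38. How counts were derived and how multi-mapped reads were treated were not given in the sources used here. Per the labels' protocols, lysates were digested with RNase I (100 U, 45 min), HA-tagged ribosomes were bound for 4 h, and libraries had 22 PCR cycles. Library totals ran from 93222 to 1201146 counts. Biotypes and coordinates came from RefSeq (GRCm38.p6); 39101 symbols matched, 164 matched as older symbols and 16225 did not. No protein sequences or coding lengths were used here, so the planned per-kb comparison and protein features were not made.

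Values, taken as rounded expected counts, were tested with edgeR 4.0.16 in R 4.3.3: filterByExpr (minimum count 10), TMM, 1 quasi-likelihood fit of 6 group means over 15 libraries (9 residual degrees of freedom), Benjamini-Hochberg adjustment over 495 genes, threshold 0.05. Each SE was derived from the log2 fold change and its F statistic (prior count 0.125). The procedure was run on simulated counts, whose outcome is not reported here and is not used to read the calls. The common dispersion of the fit was 1.73, a biological coefficient of variation of 131%. An absence of calls is therefore not read as an absence of change. A zero limit is 3 counts, per library or per group as stated. It covers counting error alone, and zeros also occurred where libraries of the same group had many counts.

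The 6 genes, and the gene lists (both groups of chaperones, histone variants, replication fork partners, and markers of egg, 2-cell embryo, cumulus, sperm and blood), were chosen with earlier results of these data known. Named besides the 6 were up to 3 genes of each list with most counts that passed the filter, any called gene, and the 3 genes most correlated with each of the 6. List genes at 0, markers, partner subunits, relatives and pseudogenes were named as counts after their values were seen. Alternatives were DESeq2 1.42.0, its size factors, no filter, protein-coding totals, a replicate block, shares without the 5 largest genes, and each library left out.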

Additional observations from a re-analysis of the deposited data

How the results depend on the processing

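The number of genes called was 0 in all 9 comparisons with edgeR, with DESeq2 size factors, with protein-coding totals in place of TMM, and with the replicate block. The block gave 0 calls, and the replicate numbers did not show a pairing: deviations of same-numbered Het and KO libraries correlated at -0.155 in M2, at -0.154, -0.324 and 0.104 in PN5, and at -0.04 and 0.03 in early 2-cell embryos. DESeq2 called 2, 2 and 4 genes for KO against Het in M2, PN5 and early 2-cell, 4 and 1 for PN5 against M2 in Het and KO, and 40 and 13 for early 2-cell against PN5. Without the low-count filter, edgeR called 1 gene for KO against Het in early 2-cell, 3 and 1 for early 2-cell against PN5 in Het and KO, and 2 for the difference of KO effects between early 2-cell and PN5.

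Leaving out each library in turn gave 0 to 8 calls for KO against Het in PN5, 0 to 1 in early 2-cell and 0 in M2. It gave 0 to 4 and 0 to 1 for PN5 against M2 in Het and KO, 0 to 33 and 0 to 3 for early 2-cell against PN5 in Het and KO, and 0 to 4 and 0 to 2 for the differences of KO effects. In PN5 the calls came without M2 Het replicate 1 or 2 (8 and 7), M2 KO replicate 1 or 2 (6 and 8) or early 2-cell KO replicate 1 or 2 (6 and 6), where a group of 1 library lets the filter pass 839 to 1058 genes in place of 495; Npm2 was among them. Without early 2-cell Het replicate 2 there was 1 call for early 2-cell against PN5 in Het. The same 6 left-out libraries also gave calls in that comparison. Anp32b was called there without M2 KO replicate 1 or either early 2-cell KO library. Npm2 was called there without M2 Het replicate 2, either M2 KO library or either early 2-cell KO library. For the difference of KO effects between PN5 and M2, Npm2 was called without M2 KO replicate 1 or either early 2-cell KO library. Each Npm2 call had a whole group at 0, its PN5 counts came from 1 library, and nothing is read from these calls.

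Of 37 fold changes of the 6 genes, 9 changed sign under an alternative and 11 without a library. Without the 5 protein-coding genes of highest mean share in the denominator, 2 mean shares moved up by more than their SD, that of Anp32b in M2 Het and that of Nap1l1 in PN5 KO. Scaling by protein-coding totals moved the median of all genes by 1.09 and 1.11 (log2) for early 2-cell against PN5 in Het and KO, and by 0.18 for KO against Het in PN5 and early 2-cell. For counting error alone, a zero would allow up to 0.0385% to 0.283% of protein-coding counts in the early 2-cell libraries. M2 KO replicate 1, with 5997 counts, was shallower than the deepest of those libraries (7795).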
